A study of Saccharomyces cerevisiae with 8 samples.

Results

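The strains Trans (DGY1726) and ODIRA_A (DGY1735) of Saccharomyces cerevisiae carry different structural forms of an amplification of GAP1, and their translation was compared directly by ribosome profiling. Both were isolated from chemostat populations after about 150 generations of glutamine limitation, so time under selection was matched between them. The comparison used 4 of the 8 libraries of the series, 2 biological replicates of each strain, and covered 6600 protein-coding genes, of which 5725 had enough ribosome protected fragments (RPFs) to be tested. Of the tested genes 110 lie in or at the ends of the segments whose copy number or place differs between the strains or from the reference genome, and 5615 lie outside them.

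Both strains descend from FY4, a MATa haploid of the S288C background, and both carry a reporter cassette with GFP and KanMX beside GAP1. For profiling, each was grown at 30 °C in a chemostat limited by 800 µM glutamine at a doubling time of 5.8 h, and ribosomes were arrested with cycloheximide. In Trans, a tandem duplication from TOF2 to GAP1 lies within a copy of the chromosome XI right arm that was joined to chromosome VIII, where it replaced the end beyond FLO5, and a separate segment of chromosome V around GLC7 was amplified. In ODIRA_A, origin-dependent inverted-repeat amplification made a triplication bounded by ALY1 and SIR1. Each strain is a single evolved clone, so a difference between them joins the CNV with every other change that the clone carries. The ancestor, the RNA-seq and the proteomics were not analysed here, so a difference could lie in mRNA level or in translation, and neither strain can be called changed from its ancestor.

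GAP1 encodes the general amino acid permease, which brings amino acids into the cell when preferred nitrogen sources are scarce. It belongs to the genes under nitrogen catabolite repression, in which the GATA activators Gln3 and Gat1 and the repressors Dal80 and Gzf3 act through GATA sequences. The yeast wall is a layer of glucan and chitin with an outer coat of mannoproteins, many of them attached through a glycosylphosphatidylinositol (GPI) anchor. Mother and daughter part after division when chitinase and glucanases made by the daughter cut the septum.

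The 4 libraries held 7708635 to 8842034 RPFs on coding sequence. Trans replicate 1 ranked genes more like both ODIRA_A libraries, with Spearman's rho of 0.984 and 0.977, than like Trans replicate 2, with rho of 0.969, while the ODIRA_A replicates had rho of 0.984. Replicate log2 ratios had an SD of 0.39 in Trans and 0.28 in ODIRA_A, against 0.18 and 0.23 in the other strains of the series. Genes are not independent replicates, and no test was made of these values. Because Trans replicate 2 stood apart, results are given below with each library left out for groups of genes and for some single genes. A call printed without such a note need not have held in all of these fits. Outside the segments the few genes whose calls did hold in all of them are named below. The mating type of FY4 was visible in both strains, since the a-factor gene MFA1 had 67.4 to 242.2 CPM (RPFs normalised for library size, on the counts-per-million scale) in the 4 libraries and MF(ALPHA)1, which encodes the pheromone of the opposite mating type, had 0.8 to 6.2.

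The first question was whether RPFs follow copy number along the amplified arm of chromosome XI. Copy numbers were inferred from the described structures and were not measured here. From TOF2 to VPS51 (chrXI:458924-478832 of R64-1-1), where Trans has 3 copies and ODIRA_A 1, all 9 tested genes of 11 were higher in Trans, with a median log2 difference of 1.72 against 1.58 for the copy ratio. Over all tested genes 2.64% were higher in Trans and 1.01% lower by the same test, or 3.65% in either direction, and the median was -0.00. That test was the quasi-likelihood F test of edgeR, and a gene passed with a Benjamini-Hochberg adjusted p under 0.05. TOF2, which encodes a nucleolar protein that holds the phosphatase Cdc14 in the nucleolus, had 110.0 and 135.0 CPM in Trans and 34.1 and 37.8 in ODIRA_A, a log2 difference of 1.77 ± 0.15 (SE, adjusted p = 0.000216 by edgeR). The lowest Trans library was thus well above the highest of ODIRA_A. PRY2, which encodes a secreted sterol-binding protein, showed the largest difference, with 233.0 and 339.7 in Trans and 77.7 and 43.9 in ODIRA_A, a log2 difference of 2.24 ± 0.26 (adjusted p = 0.00185 by edgeR). The groups did not overlap, but the replicates of each strain were further apart than for TOF2, and the call for PRY2 was lost without Trans replicate 2. The other 8 genes passed in all 4 fits that left out 1 library.

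**Figure D1:**
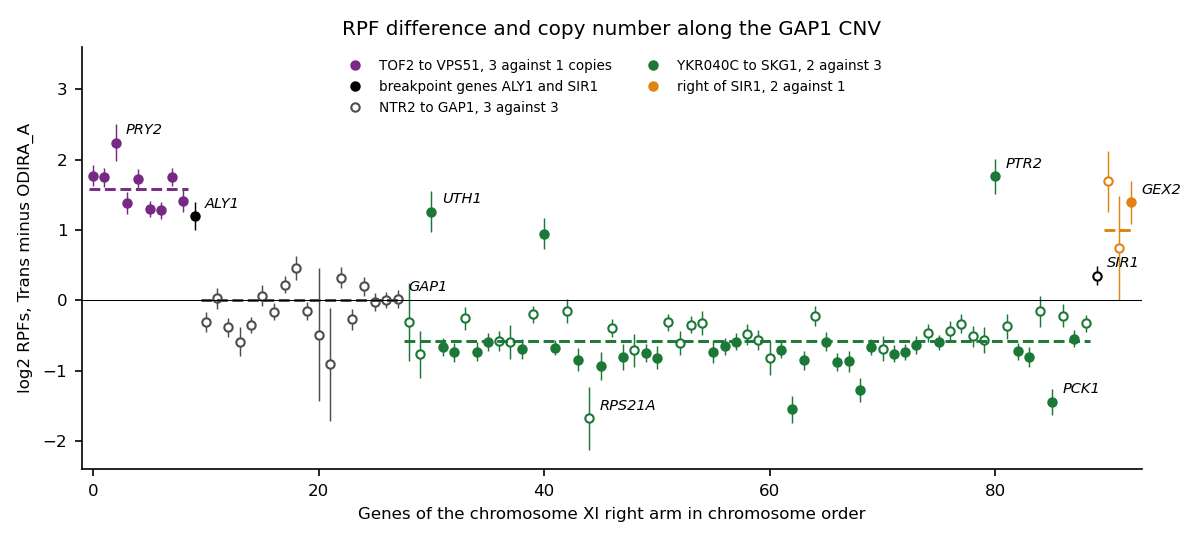
Log2 difference in RPFs between Trans and ODIRA_A (points, with SE bars) for the tested genes of the amplified chromosome XI arm, in chromosome order. Filled points passed the test, open points did not, and dashed lines mark the log2 copy ratio of each segment. The points step from a median of 1.72 left of ALY1 to -0.09 up to GAP1 and -0.61 beyond it, and PTR2, UTH1 and YSR3 stand above 0 among genes with fewer copies in Trans.

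ALY1, an arrestin-like adaptor that directs permeases to endocytosis, stands at the left boundary of the ODIRA_A amplification. The study places the likely breakpoint inside ALY1, reports disrupted expression there, and removed the gene. Counts over its whole frame can therefore join intact and broken copies in ODIRA_A. ALY1 had 233.3 and 382.3 CPM in Trans and 130.7 and 137.8 in ODIRA_A, a log2 difference of 1.20 ± 0.20 (adjusted p = 0.00889 by edgeR). Its groups were separate, although the replicates of Trans differed by more than those of ODIRA_A, and the call was lost when either ODIRA_A library was left out.

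From NTR2 to GAP1 (chrXI:482171-516871), where both strains have 3 copies, none of the 18 tested genes differed by edgeR's test, and the median was -0.09. At an unadjusted p under 0.05, 1 was higher and 3 were lower, against 730 and 511 of all 5725 tested genes, while DESeq2 called 0. With 1 library left out the median of the segment ran from -0.13 to -0.03. Both Trans libraries were above both of ODIRA_A for 4 genes and below them for 6, against 23.8% and 23.1% of all tested genes. GAP1 itself had 8794.8 and 7960.1 CPM in Trans and 8815.0 and 7798.4 in ODIRA_A. The 4 values interleaved, and the log2 difference was 0.01 ± 0.13. DAL80, which encodes the GATA repressor of GAP1 and lies beside it in the amplified core, had 972.5 and 1291.2 in Trans and 912.7 and 899.1 in ODIRA_A, a log2 difference of 0.32 ± 0.15 (adjusted p = 0.238 by edgeR). Both Trans libraries were above both of ODIRA_A, by less than the test required.

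From YKR040C to SKG1 (chrXI:518063-639968), where Trans has 2 copies and ODIRA_A 3, the median was -0.61 against -0.58 for the copy ratio. Of 61 tested genes 58 were below 0, 30 passed the test as lower, and 3 passed as higher, against the direction of copy number. Leaving out ODIRA_A replicate 1 left 14 lower genes, and leaving out replicate 2 of that strain left 3. Those 3 were YKR075C, PCK1 and RPF2, which also passed in the other 3 fits that left out a library.

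PCK1 encodes phosphoenolpyruvate carboxykinase, the first committed enzyme of gluconeogenesis. It had 331.9 and 489.9 CPM in Trans and 1237.5 and 996.0 in ODIRA_A, a log2 difference of -1.44 ± 0.19 (adjusted p = 0.00278 by edgeR), or 36.8% of the ODIRA_A level where the copies gave 66.7%. The higher Trans library was well below the lower ODIRA_A library. YKR075C, of unknown function, had 106.4 and 119.6 in Trans and 396.8 and 264.3 in ODIRA_A, or 34.2% of the ODIRA_A level. RPF2, which encodes an assembly factor of the large ribosomal subunit, stood at 41.3% of the ODIRA_A level, with 185.5 and 122.6 against 400.0 and 347.0. RPS21A, a ribosomal protein gene, had the largest log2 difference of the segment, -1.68 ± 0.45, but its Trans replicates were far apart, with 1042.1 and 336.2 against 2026.1 and 2376.8, and it did not pass (adjusted p = 0.0964 by edgeR).

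The 3 genes that went against copy number were PTR2, UTH1 and YSR3. PTR2 encodes the di- and tripeptide transporter, and it had 86.1 and 126.1 CPM in Trans and 31.9 and 30.7 in ODIRA_A, a log2 difference of 1.76 ± 0.25 (adjusted p = 0.00496 by edgeR). The groups were far apart, and the call was lost only without ODIRA_A replicate 2. UTH1, a SUN family gene whose product is found in the cell wall and in mitochondria, had 710.4 and 904.7 in Trans and 460.0 and 214.4 in ODIRA_A, a log2 difference of 1.26 ± 0.29 (adjusted p = 0.0478 by edgeR). The ODIRA_A replicates differed about as much from each other as from Trans, and of the 4 fits that left out a library UTH1 passed only the fit without ODIRA_A replicate 1. YSR3, a sphingoid base phosphate phosphatase gene, had 68 and 54 RPFs in Trans and 33 and 37 in ODIRA_A, a log2 difference of 0.95 ± 0.22 (adjusted p = 0.0432 by edgeR), which was lost when either ODIRA_A library was left out.

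SIR1, a silencing gene at the right boundary of the ODIRA_A amplification, did not pass, with 60.5 and 61.7 against 52.0 and 43.9 and a log2 difference of 0.35 ± 0.14. The study places the likely breakpoint inside SIR1, reports disrupted expression there, and removed the gene. It names the flanking gene SKG1 as likely disrupted as well. Between SIR1 and the telomere, where Trans has 2 copies and ODIRA_A 1, the 3 tested genes of 5 had a median of 1.39 against 1.00 for the copy ratio. GEX2, a glutathione exchanger gene, was the 1 that passed, with 179 and 103 RPFs in Trans and 51 and 68 in ODIRA_A (log2 difference 1.39 ± 0.30, adjusted p = 0.0321 by edgeR). GEX1, outside the segments, had means of 14.4 CPM in Trans and 6.2 in ODIRA_A. Its log2 difference of 1.21 was similar and did not pass (adjusted p = 0.0677 by edgeR). Whether GEX1 and GEX2 shared reads was not tested, so the value of GEX2 may not be that of 1 locus. GEX2 and the flocculin gene FLO10, with 26 and 41 against 10 and 13 RPFs, had groups that did not overlap. NFT1 reached no more than 15 RPFs, and its groups overlapped.

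On chromosome V, between SAK1 and YER137C, Trans has 3 copies and ODIRA_A 1. Trans was above ODIRA_A in both libraries for all 7 tested genes of 8, and 5 passed the test, with a median of 1.53 against 1.58 for the copy ratio. COM2, a zinc finger transcription factor gene, had 155.4 and 152.7 CPM in Trans and 46.7 and 40.5 in ODIRA_A, a log2 difference of 1.82 ± 0.14 (adjusted p = 0.000162 by edgeR). PMD1, with a log2 difference of 1.84 ± 0.16, and YER134C, a phosphatase gene, with 1.53 ± 0.17, were likewise near or above the copy ratio, and these 3 genes passed in all 4 fits that left out a library.

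RPS26B, which encodes a protein of the small ribosomal subunit, had 466.7 and 421.0 CPM in Trans and 223.5 and 193.3 in ODIRA_A, so its log2 difference of 1.09 ± 0.15 (adjusted p = 0.00432 by edgeR) was below the copy ratio. GLC7, the catalytic subunit of type 1 protein phosphatase, had 1554.9 and 746.9 in Trans and 569.2 and 541.4 in ODIRA_A. The Trans replicates differed by more than the lower of them differed from ODIRA_A, and the log2 difference of 1.05 ± 0.27 did not pass (adjusted p = 0.0619 by edgeR). YER135C, an uncharacterised frame with 25 and 21 RPFs against 3 and 6, did not pass either (adjusted p = 0.0812 by edgeR).

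The boundary genes of this segment were both higher in Trans. The study places likely breakpoints of Trans inside SAK1 and YER137C, reports disrupted RNA and RPF expression there, and removed both genes. Their counts over the whole frame can therefore join intact and broken copies. SAK1, which encodes an activating kinase of Snf1, had 74.3 and 88.8 CPM in Trans and 31.5 and 46.3 in ODIRA_A (log2 difference 1.06 ± 0.19, adjusted p = 0.013 by edgeR), a call lost without ODIRA_A replicate 1, and YER137C had 94.6 and 68.1 against 18.9 and 22.7 (log2 difference 1.96 ± 0.20, adjusted p = 0.000478 by edgeR). YER137W-A, annotated on the other strand across YER137C, had 365 and 731 RPFs in Trans and 0 in each ODIRA_A library, so it was at least 204-fold higher against a floor of 3 RPFs per library. The other strains of the series had 0 to 3 RPFs there. The SNF1 and GLC7 genes encode the kinase and the phosphatase that set the response to glucose. Of 34 tested genes in the list of Snf1 and Glc7 factors, 3 were higher and 0 lower by edgeR, with a median of 0.16. Over all genes 2.64% were higher and 1.01% lower. With 1 library left out the median of the list ran from 0.02 to 0.32, and its calls did not hold in every such fit. The 3 were the breakpoint gene SAK1, RED1, a meiotic chromosome axis gene whose product binds Glc7, and SLA1, an actin patch gene.

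**Figure D2:**
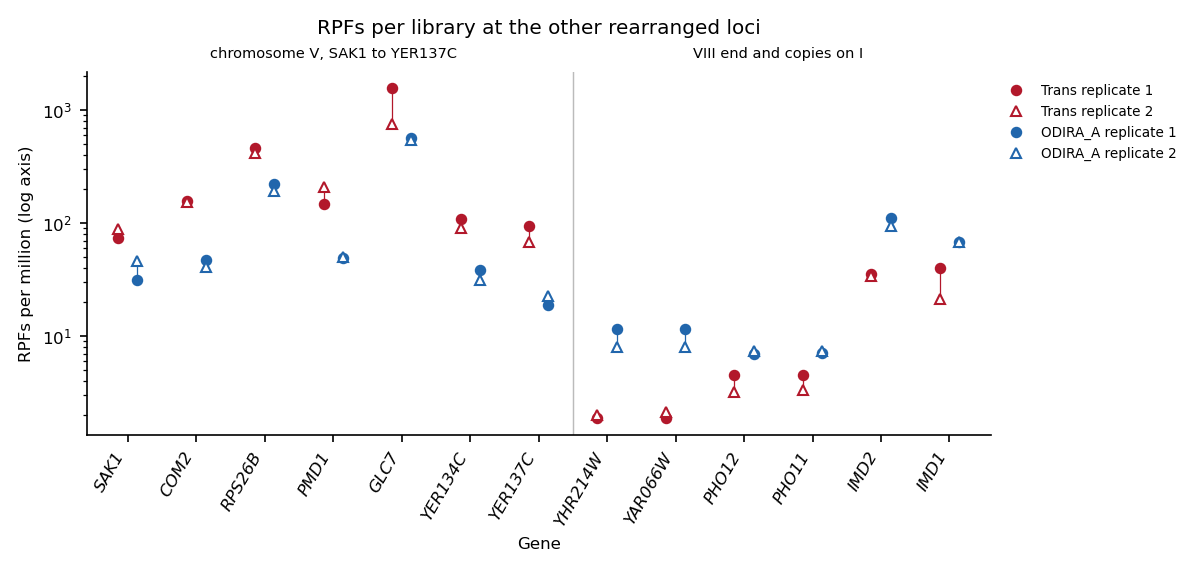
Normalised CPM (log axis) in each library for genes of the amplified chromosome V segment and for genes of the replaced chromosome VIII end beside their near-identical copies on chromosome I. Red marks Trans, blue marks ODIRA_A, circles are replicate 1, triangles are replicate 2, and a line joins the replicates. GLC7 was 1554.9 in 1 Trans library and 746.9 in the other, and YHR214W and YAR066W had nearly the same values.

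The end of chromosome VIII beyond FLO5 (chrVIII:537759-562047) was replaced in Trans. Of its 16 genes 7 could be tested, and 2 were lower and 0 higher. The median log2 difference was -0.18, from -2.32 to 1.28, and 4 of the 7 were below 0. IMD2, an inosine monophosphate dehydrogenase gene of guanine nucleotide synthesis, had 35.6 and 34.2 CPM in Trans and 110.3 and 94.7 in ODIRA_A, a log2 difference of -1.56 ± 0.14 (adjusted p = 0.000276 by edgeR). YHR214W, a putative GPI protein gene, had 15 and 15 RPFs in Trans and 90 and 76 in ODIRA_A. YAR066W on chromosome I had 15 and 16 in Trans and 90 and 76 in ODIRA_A, so reads of this pair of near-identical genes could not be told apart, and neither count is that of 1 locus. IMD1 on chromosome I, a blocked frame close in sequence to IMD2, was also lower, with 40.3 and 21.1 CPM against 68.8 and 68.4. The remaining RPFs of IMD2 and YHR214W in Trans were not traced to a locus. PHO12, an acid phosphatase gene with a near-identical copy in PHO11, had 36 and 24 RPFs in Trans and 54 and 69 in ODIRA_A and did not pass (adjusted p = 0.157 by edgeR).

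Outside the segments 129 genes were higher in Trans, 2.3% of the 5615 tested, and 26 were lower, 0.463%. The 4 libraries did not overlap for any of these 155 genes, which was so for 23.7% of all genes upwards and 22.5% downwards. The median log2 difference of the 129 was 1.00, from 0.50 to 4.33, and 63 exceeded 2-fold, while the median of the 26 was -0.83 and 7 exceeded 2-fold. Of the 129 genes 112 were higher in Trans replicate 2 than in replicate 1, with a median log2 ratio of 0.38 against 0.01 for all genes, so the library that stood apart also had the larger values. In ODIRA_A the median log2 ratio of replicate 2 to replicate 1 over the 129 was -0.17, against -0.01 for all genes. Without Trans replicate 2 the test called 83 of the 129, and without Trans replicate 1, so that Trans replicate 2 alone stood for the strain, it called 126 of them and 939 higher and 727 lower genes outside the segments in all. With ODIRA_A replicate 1 left out it called 43 and with replicate 2 of that strain left out 5 of the 129, and those that could be fitted kept their direction in every fit that left out 1 library. The 26 lower genes gave 15, 26, 7 and 4 calls in the same order. The other strains of the series, which share the estimate of spread, had closer replicates, and with only the 4 libraries in the fit 21 and 5 of these genes were called. With libraries allowed to differ in spread, in limma's voom with quality weights, 73 and 10 were called.

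The genes that passed in all 4 of the fits that left out a library were 5 of the higher and 3 of the lower. The higher were DAL5, the allantoate and ureidosuccinate permease, NCA3, a SUN family wall gene, RIM4, an RNA-binding regulator of meiosis, MF(ALPHA)1, and YOR248W, a dubious frame. The lower were HO, the mating type switching endonuclease, YAR066W and YLR125W. The count of YAR066W cannot be told apart from that of YHR214W in the replaced chromosome VIII end. IMD1, also counted among the lower genes outside the segments, is close in sequence to IMD2 of that end.

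**Figure D3:**
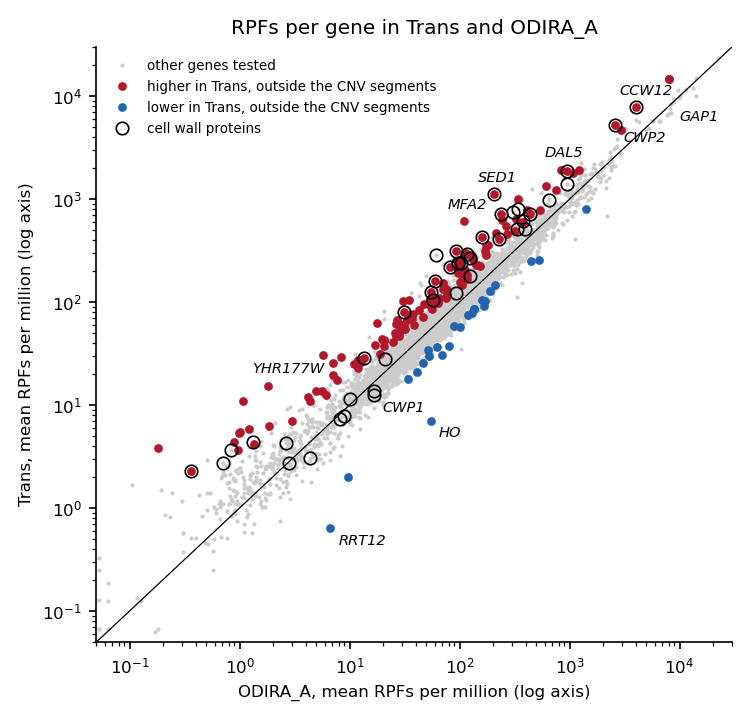
Mean normalised CPM in ODIRA_A (x, log axis) and Trans (y, log axis) for the tested genes with RPFs in both strains. Red points are the 129 higher and blue points the 26 lower genes outside the segments, grey points are all other genes, black rings mark the cell wall proteins, and the line is equality. Most rings lie above the line at every level of RPFs, and CWP1 and GAP1 lie near it.

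Cell wall proteins had the highest share of members higher in Trans among the 37 functional lists examined. The lists were chosen with earlier results of these data known, so this rank is a description. A broader list of 136 genes whose description names the cell wall, made after the values were seen, had 24 higher and a median of 0.29. Of the 42 tested members of the list of cell wall proteins, 21 were higher and 0 lower, against 2.64% and 1.01% of all genes. The median log2 difference was 0.98, and 19 of the 21 lie outside the segments. Both Trans libraries were above both of ODIRA_A for 35 members, against 23.8% of all genes, and 36 had a positive difference. Over the list the median log2 ratio of replicate 2 to replicate 1 was 0.34 in Trans and -0.29 in ODIRA_A, so the difference was wider between the replicate 2 libraries. The list gave 30 higher members without Trans replicate 1, 14 without Trans replicate 2, 13 without ODIRA_A replicate 1 and 2 without ODIRA_A replicate 2, and its median stayed between 0.67 and 1.22. In these fits FLO1 was lower without Trans replicate 1 and TIR3 without Trans replicate 2, and with only the 4 libraries in the fit 5 members were higher.

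Mannoproteins came first. SED1, a major GPI mannoprotein of stressed and stationary cells, had 682.7 and 1552.6 CPM in Trans and 184.8 and 228.7 in ODIRA_A, a log2 difference of 2.43 ± 0.33 (adjusted p = 0.0058 by edgeR). The Trans libraries differed from each other by more than 2-fold, and both were far above ODIRA_A. TIP1, a mannoprotein induced by cold, had 346.8 and 513.5 in Trans and 174.1 and 143.3 in ODIRA_A (log2 difference 1.44 ± 0.19, adjusted p = 0.00291 by edgeR), and SRL1 had 233.0 and 396.4 against 105.0 and 82.5 (1.75 ± 0.25, adjusted p = 0.00541 by edgeR). Neither gene's groups overlapped. CCW12 and CWP2, abundant GPI mannoproteins of growing cells, rose less, with log2 differences of 0.95 ± 0.22 and 0.99 ± 0.19. PIR3, HSP150, SPI1, PST1 and UTR2, a chitin transglycosylase, also passed, as did TIR4 at 15 and 20 RPFs against 4 and 2.

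The glucanase-like SUN and SCW proteins formed a further group within the list. NCA3 had 202.1 and 233.9 CPM in Trans and 88.9 and 73.4 in ODIRA_A, a log2 difference of 1.43 ± 0.14 (adjusted p = 0.000323 by edgeR), with close replicates in both strains. Its SUN family relatives were all higher too, with log2 differences of 1.30 ± 0.24 for SIM1, 1.26 ± 0.29 for UTH1 and 0.86 ± 0.14 for SUN4. SCW4 and SCW10 had 1.56 ± 0.27 and 1.21 ± 0.27, TOS1 had 0.87 ± 0.14, and GAS1, the main glucan remodelling enzyme, had 0.72 ± 0.15. PRY1 and PRY2, the secreted sterol-binding pair, were both higher.

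Some wall genes did not follow. CWP1, a mannoprotein of the birth scar, had 11.2 and 13.6 CPM in Trans and 20.9 and 12.5 in ODIRA_A, with overlapping groups. TIR1, TIR2 and TIR3, anaerobic mannoproteins, had log2 differences of 0.17, -0.06 and -0.29 with overlapping groups. FLO1 and FLO5, flocculins that are close copies, had nearly the same counts in each library and overlapped. GAS2, a sporulation gene, was lower by 0.49 without passing.

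Genes of daughter cell separation overlapped with this group in function. Of 19 tested members 7 were higher and 0 lower, against 2.64% and 1.01% of all genes, with a median of 0.62, and both Trans libraries were above both of ODIRA_A for 16, against 23.8% of all genes. CTS1, the endochitinase that opens the septum, had 391.3 and 851.8 CPM in Trans and 262.6 and 222.7 in ODIRA_A, a log2 difference of 1.36 ± 0.30 (adjusted p = 0.0403 by edgeR). SCW11, a daughter glucanase-like gene, had 125.5 and 180.9 against 74.0 and 67.3 (1.12 ± 0.16, adjusted p = 0.00541 by edgeR). In CTS1 the lower Trans library was nearer to ODIRA_A than to its replicate, and in SCW11 both stood clear.

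DSE1, a daughter-specific gene, had 227.5 and 230.7 in Trans and 150.8 and 134.1 in ODIRA_A, a log2 difference of 0.69 ± 0.12 (adjusted p = 0.0142 by edgeR), so it did not share the gap between the Trans replicates. EGT2, DSE2, PRY3 and ASH1, the daughter repressor of HO, were the others that passed. AMN1, an antagonist of mitotic exit, had a log2 difference of -0.17 with overlapping groups and did not pass. The list gave 16 higher members without Trans replicate 1, 4 without Trans replicate 2, 4 without ODIRA_A replicate 1 and 0 without ODIRA_A replicate 2. With only the 4 libraries in the fit 1 member was higher.

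Many wall and septum mRNAs are bound by Ssd1, an RNA-binding protein that restrains their translation. A list of 11 such targets was taken from the text of the study, which gives them as known targets from earlier work, and it was gathered here after the values had been seen, so its count is a description. Of the 11, 9 were higher in Trans and 0 lower, against 2.64% and 1.01% of all genes, with a median of 0.95. They were the wall and septum genes UTH1, SUN4, CTS1, DSE2, SRL1, SCW10, TOS1, SCW4 and CCW12. All 9 were named above with the wall and daughter separation genes, so the count repeats those calls and is no separate result on Ssd1. The list gave 8 higher without Trans replicate 1, 5 without Trans replicate 2, 5 with ODIRA_A replicate 1 left out and 0 with its replicate 2 left out, and it gave 6 with no filter on low counts, 4 with the replicate number as a block and 1 with only the 4 libraries in the fit. The G1 cyclin gene CLN2 had 48.3 and 47.5 CPM against 37.8 and 34.8, and CIC1, a ribosome assembly gene, had 91.2 and 55 against 90.6 and 86.8, and neither passed. SSD1 itself had 223.5 and 296.3 in Trans and 216.3 and 236.4 in ODIRA_A, so its groups overlapped.

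**Figure D4:**
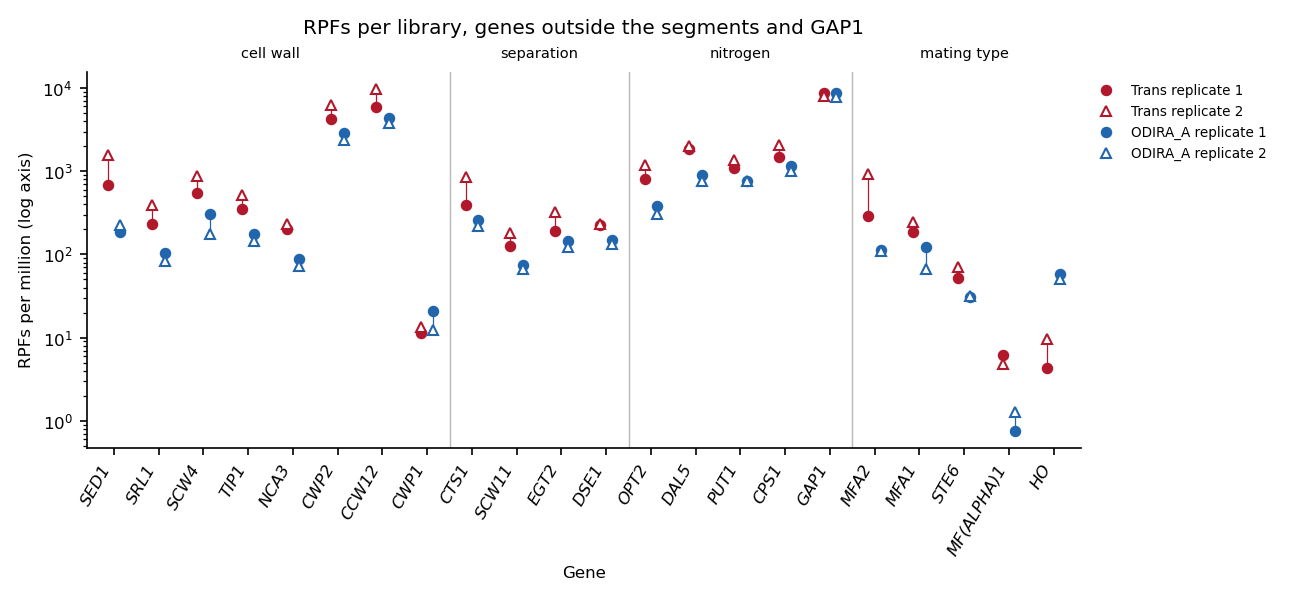
Normalised CPM (log axis) in each library for genes of the cell wall, daughter cell separation, nitrogen and mating type groups. Red marks Trans, blue marks ODIRA_A, circles are replicate 1, triangles are replicate 2, and a line joins the replicates of a strain. GAP1 and CWP1 are shown as genes whose groups overlap, and HO as a gene lower in Trans.

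Nitrogen catabolite repression targets were divided. Of 37 tested 6 were higher and 0 lower, against 2.64% and 1.01% of all genes, and the median was 0.18. The list gave 9 higher members without Trans replicate 1, 6 without Trans replicate 2, 2 with ODIRA_A replicate 1 left out and 1 with its replicate 2 left out. The 6 without Trans replicate 2 were DAL5, OPT2 and the 4 copies of the asparaginase gene ASP3, which had nearly the same counts and cannot be told apart. With only the 4 libraries in the fit 2 members were higher. The 6 of the full fit were DAL5, PUT1, CPS1, OPT2, DUR3 and PEP4. DAL5 had 1854.7 and 2018.8 CPM in Trans and 906.4 and 767.5 in ODIRA_A, a log2 difference of 1.21 ± 0.14 (adjusted p = 0.00142 by edgeR). Replicates were close in both strains, and the call held with any 1 library left out. OPT2, an oligopeptide transporter gene, had 800.2 and 1198.5 against 380.9 and 305.3 (1.54 ± 0.20, adjusted p = 0.00236 by edgeR).

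PUT1, the proline oxidase gene, had 1082.4 and 1370.0 CPM in Trans and 757.4 and 762.4 in ODIRA_A, a log2 difference of 0.69 ± 0.14 (adjusted p = 0.0251 by edgeR). The vacuolar peptidases CPS1 and PEP4 and the urea and polyamine transporter DUR3 had log2 differences of 0.73 ± 0.16, 0.55 ± 0.13 and 0.62 ± 0.14. These 4 genes had separate groups, and each passed with Trans replicate 1 left out but with none of the other libraries left out. Of the 37 members 25 had a positive difference, and both Trans libraries were above both of ODIRA_A for 17, against 23.8% of all genes. DESeq2 called 11 higher, against 281 of all 5725 tested genes. The 37 include the 4 copies of ASP3, so 1 measurement enters the list 4 times. The ammonium transporter genes MEP1 and MEP2 had log2 differences of -0.33 ± 0.14 and 0.27 ± 0.15 and did not pass.

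Because the GATA factors act on these genes, the 300 bases before each start codon were searched for GATAAG on either strand, in the R64 genome. It was present before 4 of the 6, before 14.6% of 6571 genes, before 19.4% of the 129 higher genes and before 38.5% of the 26 lower genes. A high share is built into a list of genes under GATA factors, so it says nothing particular of the 6. The share among list members that did not pass was not counted. The sites of 3 of the genes are shown, on the strand that reads GATAAG, to let the match be seen in its setting, with the motif in capitals.
DAL5 (chrX:719484-719511, minus strand): aaccagataatGATAAGtattagccgta
PUT1 (chrXII:424970-424997, minus strand): aataatgagatGATAAGggaaatagcgc
CPS1 (chrX:97545-97572, minus strand): cgctatgataaGATAAGggtggcgaggc
In CPS1 a further match overlaps the left end of the one shown. PEP4 held 1 match. OPT2 and DUR3 held none of these letters in the window, which says nothing of whether a factor acts there.

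Among amino acid and peptide permeases 5 of 23 tested were higher and 0 lower, although the median was 0.01, and the 5 became 3 without ODIRA_A replicate 1 and 0 without ODIRA_A replicate 2. AGP1, the broad, low-affinity permease induced by external amino acids, had 24.6 and 33.5 CPM in Trans and 7.1 and 9.7 in ODIRA_A, a log2 difference of 1.78 ± 0.27 (adjusted p = 0.00651 by edgeR). DIP5, the glutamate and aspartate permease, had 401.2 and 530.4 against 218.2 and 212.5 (1.11 ± 0.15, adjusted p = 0.00383 by edgeR). Both had groups that stood apart. PTR2, OPT2 and SAM3, the S-adenosylmethionine permease, were the others. GNP1, the glutamine permease, was lower in both Trans libraries without passing, with a log2 difference of -0.75. The share of permeases higher was 21.7%, against 2.64% of all genes. Of 73 amino acid biosynthesis genes 2 were higher, ARG1 and ARG5,6 of arginine synthesis, and 0 lower. Their share of 2.74% was near that of all genes.

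Mating and mating type genes were the next group. Of 37 tested 6 were higher and 0 lower, against 2.64% and 1.01% of all genes, with a median of 0.45, and both Trans libraries were above both of ODIRA_A for 23, against 23.8% of all genes. With only the 4 libraries in the fit 0 members passed. In the full fit 16 were higher and 0 lower at an unadjusted p under 0.05 by edgeR, against 730 and 511 of all 5725 tested genes. The list gave 15 higher members without Trans replicate 1, 4 without Trans replicate 2, 2 with ODIRA_A replicate 1 left out and 1 with its replicate 2 left out. The a-factor genes led: MFA2 had 290.1 and 931.4 CPM in Trans and 112.0 and 109.0 in ODIRA_A, a log2 difference of 2.47 ± 0.48 (adjusted p = 0.0395 by edgeR), and MFA1 had 187.6 and 242.2 against 122.8 and 67.4 (1.18 ± 0.26, adjusted p = 0.0346 by edgeR). The Trans libraries differed by more than 3-fold for MFA2, with both above ODIRA_A, and the groups of MFA1 were also separate, though with any 1 library left out MFA1 passed only without ODIRA_A replicate 1. STE6, the exporter of a-factor, had 52.4 and 70.0 against 30.5 and 31.6 (0.98 ± 0.15, adjusted p = 0.00768 by edgeR), and STE18, the gamma subunit of the pheromone G protein, rose by 0.64 ± 0.13.

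Genes of the opposite mating type were higher as well, at low levels. MF(ALPHA)1 had 50 and 36 RPFs in Trans and 6 and 12 in ODIRA_A, a log2 difference of 2.39 ± 0.32 (adjusted p = 0.00312 by edgeR) that held with any 1 library left out. STE3, the receptor for a-factor, had 173 and 231 RPFs against 105 and 113, and AFB1, an a-factor blocker of the opposite mating type that was not in the list, had 100 and 199 against 61 and 59. SAG1 of the same class had 27 and 22 against 21 and 11 and did not pass. STE2, the receptor of a cells, had a log2 difference of 0.32 ± 0.15 and did not pass.

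HO was lower in Trans, with 35 and 73 RPFs against 454 and 483, or 4.4 and 9.7 against 57.9 and 51.2 CPM, a log2 difference of -2.96 ± 0.25 (adjusted p = 0.000236 by edgeR). Both Trans libraries were far below both of ODIRA_A, and the call held with any 1 library left out. HO in the S288C background is an inactive allele. Its repressor ASH1 was higher, with 98.9 and 121.2 CPM in Trans and 75.6 and 53.6 in ODIRA_A (log2 difference 0.77 ± 0.17, adjusted p = 0.03 by edgeR).

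The pheromone response factor Ste12 binds TGAAACA. These letters stood in the 300 bases before 3 of the 6 higher mating genes, before 6.94% of all genes and before 14.7% of the 129 higher genes. A list of pheromone response genes can hold a high share by its making, so this says nothing particular of the 6. The share among list members that did not pass was not counted. The 3 sites are shown as an example of a shared element, with the motif in capitals.
MFA2 (chrXIV:352208-352236, plus strand): aggaacgaaaaTGAAACAtgcatgtcaga
STE6 (chrXI:46439-46467, plus strand): gttttcatatcTGAAACAattgtatatgt
STE18 (chrX:585940-585968, minus strand): catttagagccTGAAACAaaaatcaacat
All 3 genes passed with either Trans library left out, and none passed with either ODIRA_A library left out. The windows of MFA1, STE3 and MF(ALPHA)1 did not hold these letters.

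Some single genes known from meiosis and sporulation also passed. They were brought together after their values had been seen, so they form no list with a count of its own. RIM4 had 83 and 128.8 CPM in Trans and 33.0 and 37.0 in ODIRA_A, a log2 difference of 1.59 ± 0.19 (adjusted p = 0.00185 by edgeR). SPS100, a spore wall gene, had 149 and 323 RPFs against 44 and 55, SPR28, a meiotic septin, 33 and 35 against 9 and 6, and RED1 40 and 57 against 18 and 13. IME1, the master regulator of meiosis, had 20.7 and 34.7 CPM against 12.2 and 12.9 (1.13 ± 0.25, adjusted p = 0.0317 by edgeR). The groups of these 5 genes did not overlap, and RIM4 was the 1 of them that passed with any 1 library left out. RRT12, a subtilisin-like gene of the dityrosine layer of the spore wall, went the other way, with 7 and 3 RPFs in Trans and 52 and 64 in ODIRA_A, a summed ratio of 10.4-fold lower (95% exact interval 5.48 to 22.3, for counting error only).

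YHR177W, a putative WOPR domain transcription factor gene, had 97 and 140 RPFs in Trans and 17 and 14 in ODIRA_A, a log2 difference of 3.08 ± 0.38 (adjusted p = 0.00185 by edgeR). MIP6, a putative RNA-binding protein gene, had 43 and 47 against 11 and 10. HSP30, a stress-induced regulator of the plasma membrane proton pump, had 63.6 and 61.4 CPM against 21.6 and 14 (1.82 ± 0.26, adjusted p = 0.00526 by edgeR), and PMA1, that pump, had 4740.4 and 4648.2 against 3158.7 and 2685.1 (0.68 ± 0.13, adjusted p = 0.0185 by edgeR). Replicates of Trans were close in these genes. SRD1, which the study describes as disrupted in FY4, had 24 and 32 RPFs against 7 and 10. YLR154C-H in the ribosomal DNA region had 49 and 11 against 2 and 1, a summed ratio of 22.2 (95% exact interval 7.25 to 110.8, counting error only), with replicates of Trans far apart. YBR056W-A, an uncharacterised gene, also was among the 15 largest rises.

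A neighbouring pair on chromosome XII moved in opposite directions. YLR125W, of unknown function, had 0 RPFs in both Trans libraries and 67 and 47 in ODIRA_A, so it was at least 17.5-fold lower in Trans against a floor of 3 RPFs per library. YLR124W, a dubious frame next to it, had 132 and 40 RPFs in Trans and 11 and 7 in ODIRA_A. Trans was thus without RPFs on 1 and above ODIRA_A in both libraries on the other. YLR123C, on the far side of YLR124W, had 0 to 2 RPFs and was not tested, and YLR126C, beyond YLR125W, had 534 and 570 against 580 and 735 and did not pass.

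Metal and phosphate genes held a few members that passed, all of them lost without ODIRA_A replicate 2, and over all genes 2.64% were higher. In the iron regulon 3 of 29 tested were higher and 0 lower, with a median of 0.46: FIT3, a siderophore-binding mannoprotein, had 41 and 43 RPFs against 9 and 8, HMX1, the heme oxygenase, had 40.7 and 42.4 CPM against 22.1 and 19.5 (1.00 ± 0.14, adjusted p = 0.00523 by edgeR), and ARN1, a siderophore transporter, had 136 and 77 RPFs against 46 and 39. In the phosphate regulon 2 of 26 were higher, the transporters PHO89 and PHO84, with log2 differences of 1.30 ± 0.21 and 0.95 ± 0.19. In the list of zinc and copper genes 3 of 18 were higher, INO1, the inositol synthesis enzyme, and CUP1-1 and CUP1-2. The CUP1 copies of the metallothionein array had the same count in every library, so they are 1 measurement.

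**Figure D5:**
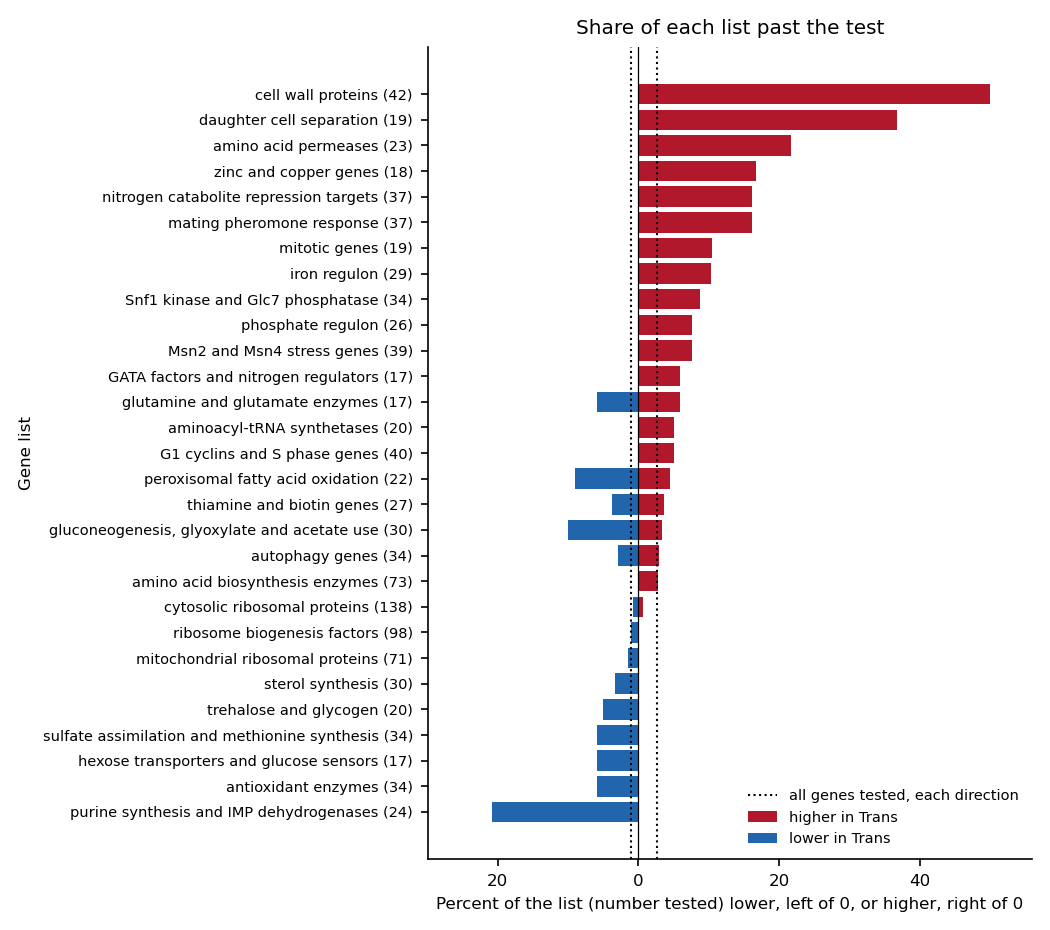
Share of the tested members of each gene list (number tested in brackets) that passed the test as higher in Trans, to the right of 0, or lower, to the left. Dotted lines mark 2.64% higher and 1.01% lower over all genes tested. Cell wall proteins stand at 50.0% higher and purine synthesis with the IMP dehydrogenases at 20.8% lower, and lists with no call are left out.

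Fewer genes were lower in Trans, 1.01% of all genes tested against 2.64% higher. In purine synthesis 5 of 24 tested were lower and 0 higher, with a median of -0.14, and the 5 became 8 without Trans replicate 1 and 1 without either ODIRA_A library. Outside the segments 2 of 21 tested were lower. Of the 5, IMD2 lies in the replaced end of chromosome VIII, IMD1 shares sequence with it, and MTD1 and BAS1, the Myb activator of the pathway, lie on chromosome XI where Trans has fewer copies. The fifth, ADE8, a purine synthesis enzyme, had 40.2 and 32.7 CPM in Trans and 68.8 and 55.3 in ODIRA_A (log2 difference -0.76 ± 0.16, adjusted p = 0.0263 by edgeR). IMD3 and IMD4, the remaining dehydrogenases, had log2 differences of -0.48 ± 0.14 and -0.32 ± 0.27 and did not pass, and the groups of IMD4 overlapped.

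In gluconeogenesis, the glyoxylate cycle and acetate use, 3 of 30 were lower and 1 was higher, against 1.01% and 2.64% of all genes. PCK1 has fewer copies in Trans. IDP2, the cytosolic isocitrate dehydrogenase, had 26.2 and 25.1 CPM in Trans and 43.5 and 50.2 in ODIRA_A (log2 difference -0.87 ± 0.20, adjusted p = 0.0444 by edgeR), and CAT2, the carnitine acetyltransferase, had 30.8 and 29.0 against 54.1 and 51.9 (-0.82 ± 0.14, adjusted p = 0.00951 by edgeR). FAA2, a peroxisomal acyl-CoA synthetase, had 16.8 and 18.9 against 37.6 and 30.1, a log2 difference of -0.92 ± 0.18. The groups of these genes were separate, with close replicates in Trans, and the 3 calls were lost when either ODIRA_A library was left out. CIT2, the peroxisomal citrate synthase, was higher, with 140.5 and 82.8 against 51.0 and 62.6, and here Trans replicate 1 had the larger value.

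Other genes among the 15 largest falls were SNO1, of vitamin B6 metabolism, with 43.5 and 32 CPM against 77.6 and 82.8 (log2 difference -1.08 ± 0.16, adjusted p = 0.00597 by edgeR), SPG4, a stationary phase gene, with 298.4 and 216.4 against 386.4 and 658.6, STF1 and TIM9 of mitochondria, RPL41B, RAS1 and YIR042C. The SPG4 replicates of ODIRA_A were themselves well apart, and its call was lost without either of Trans replicate 2 and ODIRA_A replicate 2.

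Large lists of growth genes held few calls. Of 138 cytosolic ribosomal protein genes 1 was higher, RPS26B of the chromosome V segment, and 1 lower, RPL41B, with a median of -0.12. That list was lower in replicate 2 than in replicate 1 by a median of 0.26 on the log2 scale in Trans and 0.20 in ODIRA_A. With 1 library left out its median difference between the strains ran from -0.28 to 0.01. Of 98 ribosome biogenesis factors 1 was lower, RPF2, and 0 higher, with a median of -0.18, and 80 members were below 0. Both Trans libraries were below both of ODIRA_A for 42 of the list and above for 5, against 23.1% and 23.8% of all genes. At an unadjusted p under 0.05, 20 were lower and 2 higher, against 511 and 730 of all 5725 tested genes. With 1 library left out the median of this list ran from -0.29 to -0.11. Nuclear respiratory chain genes (41 tested), glycolysis and fermentation enzymes (31), TCA cycle enzymes (20) and proteasome subunits (34) held 0 calls by edgeR. At an unadjusted p under 0.05 they held 6, 2, 2 and 3 genes in that order, where 730 higher and 511 lower of all 5725 tested genes did so. Both Trans libraries were below both of ODIRA_A for 18 of the 34 proteasome subunits. In the cell cycle lists 2 of 19 mitotic genes were higher, against 2.64% of all genes. They were HST3, a histone deacetylase, and CLB2, the mitotic cyclin, with 44.0 and 49.2 CPM against 26 and 30.1 (log2 difference 0.73 ± 0.17, adjusted p = 0.0379 by edgeR). With 1 library left out the median of the mitotic list ran from 0.23 to 0.55, and its calls did not hold in every such fit.

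The study lists variants found in only 1 of these strains in SHE10, UPS2, MSE1 and RTT107. None of the 4 genes differed by edgeR, with log2 differences of -0.07, 0.15, 0.18 and 0.59 in that order, and RTT107 was the 1 with an unadjusted p under 0.05 and the 1 that DESeq2 called (adjusted p = 0.0405).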

How the data were processed

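Ribosome profiling libraries of 4 strains, 2 biological replicates each, were deposited as read counts per annotated feature, not normalised. Per the labels, the authors used cutadapt, STAR and bedtools with the R64 genome, and per the study's methods they removed rRNA, tRNA and snRNA reads, kept a narrow range of RPF lengths and counted by strand. How reads with several matches and PCR duplicates were treated is not given in the sources used here, so near-identical genes are uncertain. RPF counts over the CDS features of each protein-coding gene were summed. A minimum of 10 RPFs in 2 or more of the 8 libraries left 5725 of 6600 genes for one edgeR 4.0.16 quasi-likelihood fit (R 4.3.3, TMM, robust), with all 4 strains sharing the estimate of spread (4 residual degrees of freedom). Adjusted p-values follow Benjamini and Hochberg over all 5725 genes, with a threshold of 0.05. CPM values use the TMM library sizes. With 4 libraries compared, an exact test on single genes could not pass that threshold.

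Named genes were boundary genes, the GLC7 locus, the 3 largest differences of each segment, calls against copy number, the 15 largest rises and falls outside the segments, up to 4 calls per list by p, genes the study discusses and genes with variants. Further members of described lists, and RIM4, IME1, PMA1, AFB1, YLR123C and YLR126C, were named outside that rule after their values were seen. Segments, members and lists were chosen with earlier results of these data known, and 4 of the 41 lists were added after the values were seen. Of the entries in the lists, 2 matched no gene. Motifs for 6 sets of factors were searched as exact letters on both strands in RefSeq's R64 genome, whose chromosome lengths equal those of the files. Ratios of low counts have exact intervals that cover counting error only. Alternatives were DESeq2 1.42.0, RLE normalization, TMM from genes outside the segments, other count minimums, counts on gene features, a replicate block, only the 4 libraries, limma 3.58.1 voom with quality weights and leaving out each library. Single values of 2 genes that belong to the groups described are not reported here.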

Additional observations from a re-analysis of the deposited data

How the results depend on the processing

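Outside the segments the 129 higher and 26 lower genes became 258 and 62 with DESeq2, 21 and 5 with only the 4 libraries in the fit, 74 and 11 with limma voom and quality weights, and 5 to 939 and 4 to 727 when 1 library was left out. With only the 4 libraries, 2 residual degrees of freedom remained, and with 1 library left out the lone library was assumed to vary like the others. The highest counts came without Trans replicate 1, the lowest with ODIRA_A replicate 2 left out. From YKR040C to SKG1 the 30 lower genes became 4 with only the 4 libraries and 3 to 38 when 1 library was left out. From NTR2 to GAP1 the count of 0 became 0 to 6. Right of SIR1 the single call became 0 with only the 4 libraries, 0 with limma voom and 0 to 2 when 1 library was left out, and beyond FLO5 the 2 calls became 1 with limma voom. The cause was not tested. Under the other alternatives these counts stayed within 1.5 times.

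With the replicate number as a block, 123 genes were higher and 27 lower outside the segments. The numbers were not taken to pair the libraries, since the deviations of Trans replicate 1 and ODIRA_A replicate 1 correlated at 0.11 over 5407 genes with only 2 pairs.

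Of the 121 named genes with a value, 99 passed the test. Over 13 alternatives, 1251 values kept their direction and their side of the threshold, 272 fell below it, 14 rose above it and 10 changed sign. Of the 272, 61 came with only the 4 libraries, 43 with limma voom, 54 and 75 with ODIRA_A replicate 1 and replicate 2 left out in turn. The sign changes were in 6 genes that had not passed and came only when a library was left out, over which the log2 difference ran from -0.0737 to 0.1038 for GAP1, from -0.9154 to 0.7709 for YKR040C, from -0.9689 to 0.3401 for FLO5, from -1.8831 to 0.5027 for YKR032W, from -0.0174 to 0.3896 for SSD1 and from -0.2509 to 0.0867 for SHE10.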

Other observations

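Other lists held few calls, where over all genes tested 2.64% were higher and 1.01% lower. Among stress genes of Msn2 and Msn4, 3 of 39 tested were higher and 0 lower, with a median log2 difference of 0.01. Among GATA factors and nitrogen regulators the breakpoint gene ALY1 was the 1 of 17 that passed, with a median of 0.23. Of 34 genes of sulfate assimilation and methionine synthesis 2 were lower, MET1 and MET28, and of 34 antioxidant genes 2 were lower, ECM4 and GTO1. MET1 and ECM4 lie in the chromosome XI segment where Trans has fewer copies. Of 71 mitochondrial ribosomal protein genes 1 was lower, MRPL20, which lies in the same segment. Among the G1 cyclin and S phase genes 2 of 40 were higher, the homeodomain repressor gene YOX1 and TOS1.

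Lists taken from the words of the gene descriptions gave 24 higher and 0 lower of 136 genes whose description names the cell wall, with a median of 0.29, 12 higher and 2 lower of 65 that name GPI, with a median of 0.31, and 4 higher and 0 lower of 58 that name pheromone, with a median of -0.01. These lists were made after the values were seen.

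Other short motifs stood in the 300 bases before the start codon as follows. The Gcn4 letters TGACTC were before 8.1% of all genes, 4.65% of the 129 higher and 26.9% of the 26 lower genes outside the segments. The stress element CCCCT was before 22.1%, 21.7% and 19.2%, the Pho4 and Cbf1 letters CACGTG before 3.5%, 0.775% and 11.5%, and the Aft1 and Aft2 letters TGCACCC before 1.32%, 3.88% and 0.0%. These are descriptions with no test.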
